A study of Homo sapiens and Mus musculus with 4 samples.

Results

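CSF1 encodes macrophage colony-stimulating factor, a secreted ligand, and the TEAD peaks around its transcription start site were taken from peak lists of mouse YAP-ERMS cells and human RD cells. The peaks whose midpoint lay within 150 kb of the start site numbered 42 of the 69714 in both lists. Of these, 41 of 47033 were in the YAP-ERMS list and 1 of 22681 was in the RD list. The start sites are known here only to the nearest 1 kb, as chromosome 3 at 107563000 for mouse Csf1 (mm9, minus strand, transcribed region from 107.544 to 107.563 Mb) and chromosome 1 at 110453000 for human CSF1 (hg19, plus strand). The locus was chosen by the number of peaks in its cluster, the largest of the YAP-ERMS list, and the members were selected on position alone. Its number of peaks and its cluster there are therefore a description and were not tested.

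The study profiled TEAD binding by chromatin immunoprecipitation and sequencing (ChIP-seq) in 4 libraries, 1 a group. The groups were TEAD ChIP from YAP-ERMS cells with an input library as its background, and TEAD ChIP from RD cells with an IgG library as its background. YAP-ERMS cells came from mouse tumours driven by YAP, with Myf5-Cre or Pax7-CreER, Cre lines of muscle progenitor and satellite cells, as the driver. The labels do not say which driver gave the profiled cells. RD is an established human embryonal rhabdomyosarcoma cell line, and the labels name no treatment for it. There were no replicates, so no difference given here has a replicate error. The deposited lists hold positions and a score per peak, and they do not give sequencing depth.

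TEAD proteins bind DNA, and the co-activators YAP1 and TAZ, which the Hippo kinases hold out of the nucleus, act through them. Many TEAD-bound regions in other cells are enhancers that lie far from the genes they act on. CSF1 binds the receptor CSF1R on monocytes, macrophages and osteoclast precursors and keeps these cells alive and dividing. IL34 is the other known ligand of that receptor. The positions of CSF1R, IL34 and the downstream signalling genes in mm9 and hg19 were not used here, so their peaks were not analysed.

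TEAD peaks ran through and beyond mouse Csf1 on both sides, and were nearly lacking around human CSF1. In YAP-ERMS, 22 of the 41 peaks lay upstream of the start site and 19 downstream, over a stretch from 99.1 kb upstream to 132 kb downstream. In RD, the single peak lay 118 kb upstream, on chromosome 1 at 110334748 to 110334994, and was 247 bp wide with a score of 134. The score is the authors' value per peak, read as 10 times the negative log10 of its p-value, and begins at 80 in both lists. It depends on depth and on the control, so scores were ranked only within a list. The RD peak scored at or above 33.3% of its list, below the 1000 that 5.47% of RD peaks reached. Its width was -0.17 log2 units from the median of RD peaks with like scores, and 49.6% of RD peaks were wider than that median at their own score. No other RD peak lay within 12.5 kb of it, as for 48.9% of the list.

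**Figure D1:**
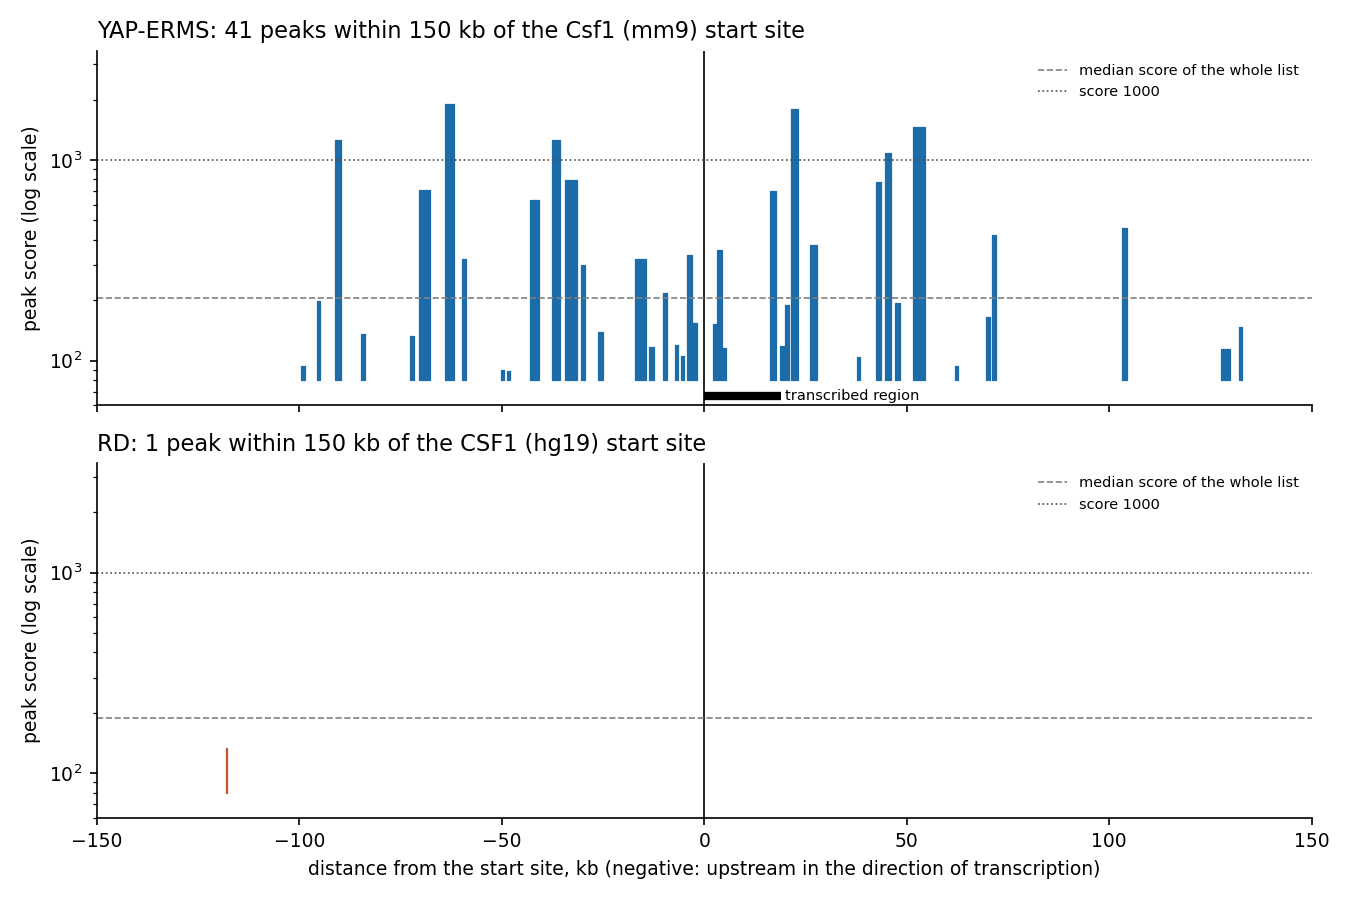
Score of each TEAD peak (log scale) against its distance from the CSF1 start site in kb, negative upstream, for YAP-ERMS (top) and RD (bottom). Bars span the peak's width from the lowest score in the lists up to its own (a thin outline keeps narrow peaks visible), and the black bar marks the Csf1 transcribed region. In YAP-ERMS 41 peaks flank the start site on both sides, and in RD 1 peak lies 118 kb upstream.

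The highest scoring peaks of the mouse locus stood well away from the start site. The highest lay 62.9 kb upstream, on chromosome 3 at 107624890 to 107626958 (mm9), with a score of 1899.9, and was rank 786 of the list. The next lay 22.3 kb downstream at 107539931 to 107541543, just beyond the far end of the transcribed region, with a score of 1796. The peak 53.0 kb downstream, at 107508435 to 107511511, had a score of 1457 and was the widest of the 41 at 3077 bp. Peaks of 1000 or more lay on both sides of the gene, 3 upstream and 3 downstream.

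The other 3 of these were 36.7 kb upstream at 107598602 to 107600752 (score 1262), 90.5 kb upstream at 107652792 to 107654215 (score 1259) and 45.3 kb downstream at 107516938 to 107518487 (score 1079). The 10 highest scores included 4 peaks below 1000. They were a peak 33.0 kb upstream at 107594431 to 107597477 (score 797) and a peak 43.0 kb downstream at 107519298 to 107520617 (score 778). The others were 69.2 kb upstream at 107630825 to 107633528 (score 711) and 16.9 kb downstream at 107545379 to 107546800 (score 701). The last of these lay inside the Csf1 transcribed region. Neighbouring peaks of 1000 or more were 7.74 to 58.9 kb apart between midpoints, with a median of 26.2 kb.

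No YAP-ERMS peak covered the Csf1 start site used here or came within 1 kb of it. Other start sites of the gene were not analysed here. The nearest peaks lay 2.28 kb upstream, at 107564873 to 107565697 with a score of 154, and 2.65 kb downstream, at 107559929 to 107560781 with a score of 152. The peaks next to them, both at 3.68 kb, scored 335 upstream (107566065 to 107567287) and 355 downstream (107558747 to 107559903). The peak-free stretch over the start site was 4.09 kb long, and 22.2% of the gaps between peaks of the list were shorter. That share counts every gap alike, although a given site falls more often into a long gap. A group of 9 peaks within 15 kb of the start site, a distance chosen after the values were seen, scored 105 to 355 with a median of 152. The 32 peaks farther out scored 89.1 to 1899.9 with a median of 310.5.

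Over all 41 peaks, Spearman's rho between score and distance from the start site was 0.03. These peaks come from 1 library and are not independent. The median score was 208 over the 22 upstream peaks and 194 over the 19 downstream peaks. The upstream share was 53.7% (Wilson 95% interval 38.7% to 67.9%, counting error only). The 4 peaks in the transcribed region scored 116 to 701, at 2.11 peaks per 10 kb. Over the 150 kb upstream of the gene the density was 1.47 peaks per 10 kb, and over the 131 kb beyond its far end it was 1.15. These are means over stretches far longer than the 19 kb transcribed region, and they take in empty ends. The first 25 kb upstream held 7 peaks, as did the next 25 kb and the first 25 kb downstream. No peak lay more than 100 kb upstream. The transcribed region was therefore not denser than the DNA just upstream.

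The outermost members thinned toward the edges of the 150 kb window. The last peak upstream was at 107661579 to 107662581, 99.1 kb from the start site, with a score of 94.0. Downstream, 3 peaks stood apart from the rest at 104, 129 and 132 kb, and the last of them was at 107430291 to 107431064 with a score of 148. Just outside the window the nearest peaks were 155 kb downstream, with a score of 282, and 172 kb upstream, with a score of 97.4. In RD the nearest peaks outside were 299 kb upstream, with a score of 205, and 329 kb downstream, with a score of 319.

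The peaks around Csf1 had low and high scores alike, with a median close to that of the list. The median score near Csf1 was 199 (95% interval from order statistics 139 to 377), against 205 over the list. A score above the list's upper quartile of 420 was held by 13 of the 41 peaks, or 31.7% (Wilson 95% interval 19.6% to 46.98%), against 25% of all peaks. A score of 1000 or more was held by 6, or 14.6% (6.88% to 28.4%), against 7.38% of all peaks. These shares come from the readout that picked the locus, so nothing is read from their difference.

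Width at matched score sets each peak's width, in log2 units, against the median of peaks with like scores in the same list. Its median over the 41 peaks was -0.01 log2 units (95% interval -0.10 to 0.11), and 20 of 41 were wider than the median at their score, against 49.9% of all peaks. Over 2-fold wider than score-matched peaks were 3 of the 41, against 1.82% of the list. These 3 were the peaks at 107594431 to 107597477, at 107577508 to 107580104 and at 107433293 to 107435413, named after their values were seen. Together the 41 peaks covered 55.5 kb, or 18.5% of the 300 kb window. Across the 41 peaks, wider peaks had higher scores, with Spearman's rho of 0.78, against 0.66 across the whole list.

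**Figure D2:**
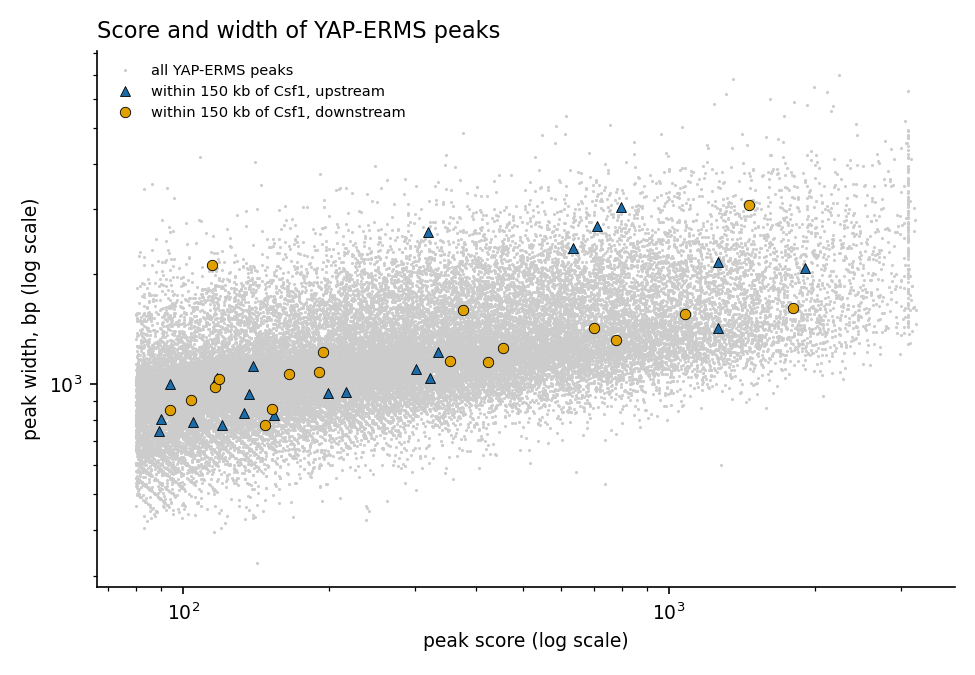
Width in bp against score, both on log scales, for all YAP-ERMS peaks (grey) and for the 41 peaks within 150 kb of Csf1, upstream (triangles) and downstream (circles). The 41 peaks spread through the grey cloud, with scores of 89.1 to 1899.9 and widths of 747 to 3077 bp.

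The number of peaks, the value that chose the locus, was above the upper quartile of the YAP-ERMS list at every distance counted. Windows of the same 300 kb length centred on every peak of the list held a median of 11 peaks (quartiles 7 and 15), that peak included, against 41 around the Csf1 start site. Only 13 peaks had more around them, at most 42, and all 13 belonged to the Csf1 window. Away from the locus the fullest such window held 38 peaks and was centred on a peak on chromosome 7 at 117858575 to 117859722. At wider distances other windows were fuller. Within 200 kb, the Csf1 start site had 45 peaks and the fullest window away from it had 47. Within 300 kb, it had 50 and the fullest elsewhere had 61, and 132 windows elsewhere held 50 or more. In fixed tiles of 300 kb, 0.0117% of 8567 tiles held 41 peaks or more, and the 1 tile that did was the tile with the Csf1 start site, which held 42.

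Peak density was lower at wider distances from the start site, which follows from choosing the locus by its cluster. Within 50 kb of the start site there were 26 peaks, against a median of 4 around all peaks and at most 22 away from the locus. Within 1000 kb there were 84, against a median of 52, and 8.32% of all peaks had at least as many. Density inside the 150 kb window was 137 peaks per Mb, and between 150 kb and 1 Mb from the start site it was 25.3 per Mb. The mean over the tiles of the list was 18.3 per Mb.

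**Figure D3:**
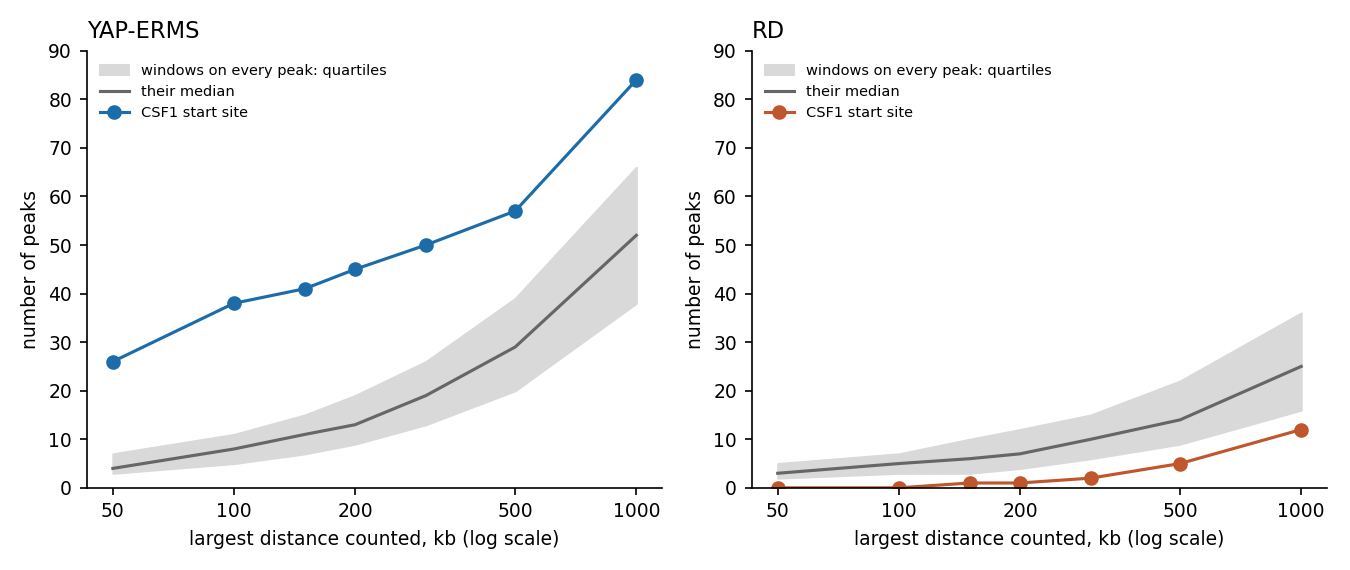
Number of TEAD peaks within a given distance (log scale, kb) of the CSF1 start site (coloured points), beside the median (line) and quartiles (band) over windows centred on every peak of the same list. YAP-ERMS runs from 26 peaks within 50 kb to 84 within 1000 kb, above the band throughout. RD runs from 0 to 12, below the band throughout. Windows of the band always hold the peak at their centre, and no peak covers either start site. In fixed 300 kb tiles, 56.8% of RD tiles held 1 peak or none.

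The single RD peak was an ordinary number for an RD window. In fixed 300 kb tiles of the RD list, 56.8% of 9793 tiles held 1 peak or none, and 40.2% held none, as did the tile with the CSF1 start site. Windows centred on every RD peak held a median of 6, and 6.56% of them held only that peak. Such windows always hold a peak at their centre, so the tiles are the closer match to a start site without one. The start site lay in a peak-free stretch of 447 kb, from 110334995 to 110782121, and 93.8% of the gaps between RD peaks were shorter. That share counts every gap alike, although a given site falls more often into a long gap, so it overstates how unusual the stretch is. Gaps at least as long numbered 1409 in the list. Density from 150 kb to 1 Mb was 6.47 peaks per Mb, against a mean of 7.70 per Mb over the tiles.

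**Figure D4:**
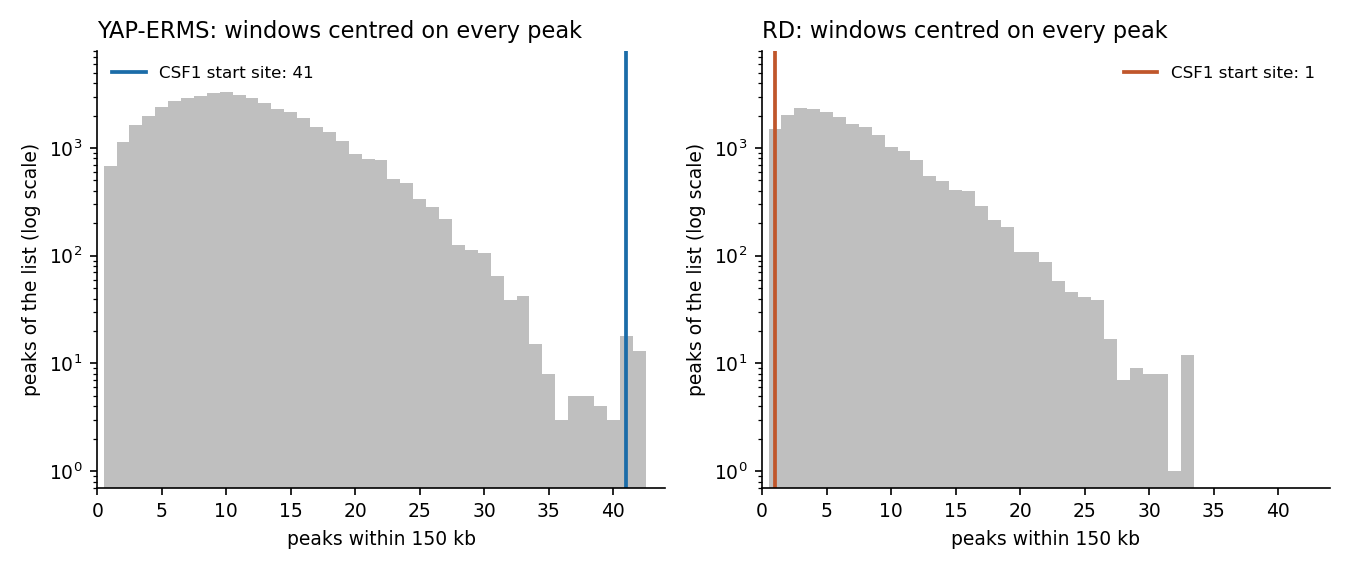
Number of peaks within 150 kb of every peak (grey bars, log scale on the vertical axis) in YAP-ERMS (left) and RD (right), with the number around the CSF1 start site as a coloured line. The line stands at 41 in the far right tail for YAP-ERMS, where the bars at 41 and 42 include peaks of the locus itself, and at 1 for RD.

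Between the cell types, the locus held 41 YAP-ERMS peaks for 1 RD peak, a ratio of 41 (exact conditional 95% interval 6.96 to 1658, counting error only). The whole lists gave a ratio of 2.07. The locus was picked for its number in YAP-ERMS, and species, build, control and possibly depth differ between the lists. A difference in TEAD binding cannot be told apart from these, and the ratio does not measure one. Positions were set side by side only as distances from the start site. Matching sequence between the genomes was not analysed here, so whether the human DNA corresponding to any mouse peak lacks a peak in RD was not tested.

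The chain of peaks that gave the locus its place depends on how a cluster is drawn. With gaps of at most 12.5 kb, 38 of the 41 peaks formed 1 chain of 172 kb, from 107490898 to 107662581, with a median gap of 2.31 kb and a longest of 11.2 kb. Chains of 5 or more held 17.6% of the list's peaks. The next largest chains held 21 peaks each, on chromosome 9 at 102615879 to 102687199 (71.3 kb), chromosome 15 at 10593287 to 10722097 (129 kb) and chromosome 2 at 27613639 to 27761564 (148 kb). The Csf1 chain had 2.21 peaks per 10 kb and a median score of 208. The chain on chromosome 9 was denser, with 2.94 per 10 kb, and had a median score of 391, and the chains on chromosomes 15 and 2 had 1.63 and 1.42 per 10 kb and median scores of 243 and 364. Peaks of 1000 or more numbered 6 in the Csf1 chain and 5, 1 and 0 in those on chromosomes 9, 15 and 2. As shares of each chain's peaks these were 15.8% at Csf1 and 23.8%, 4.76% and 0% in the others, against 7.38% of the list.

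At gaps of at most 10 kb the largest chain at Csf1 held 21 peaks over 78.0 kb, and the largest elsewhere also held 21. At 5 kb it held 10 peaks, from 107557567 to 107580104 over the start site, and 3 chains elsewhere held more, up to 14. At 25 kb the Csf1 chain kept its 38 peaks and 1 chain elsewhere held 39. Of the gaps between the 41 peaks, 12 of 40 were at most 1 kb, against 8.12% of all gaps in the list. Short gaps are part of what makes a large cluster, the reason the locus was chosen, so nothing is read from that difference. With peaks within 1 kb joined, the window held 29 peaks, and a window on chromosome 15, centred on a peak at 58956409 to 58958474, held 31.

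The first place of the locus also depended on the score limit. Before any limit its window held 41 peaks. The limits removed peaks elsewhere too. Of the 46983 peaks away from the locus, 28602 scored 160 or more, 15653 scored 320 or more and 3465 scored 1000 or more. Under each limit the windows compared were centred only on peaks that passed it. With only peaks of 160 or more, the Csf1 window held 24, against a median of 7 and at most 30 elsewhere, and 0.269% of the windows away from the locus held more. With peaks of 320 or more it held 17, against a median of 5 and at most 21 elsewhere, where 0.351% held more. With peaks of 1000 or more it held 6, against a median of 2 and at most 8 elsewhere, and 1.10% of windows elsewhere held more. Over windows centred on every peak of the list, whatever its score, the median number of such peaks was 1 and the highest was 9. Of those windows, 99.7% held 6 or fewer. The fullest window elsewhere at 160 or more was centred on a peak on chromosome 6 at 17355010 to 17356238.

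In the human gene order of RefSeq (GRCh38.p14), CSF1 stands between the lncRNA gene LINC01768 and AHCYL1, which encodes a regulator of inositol trisphosphate receptors. Positions of these genes in hg19 and mm9 were not used here. No peak was assigned to them, and a peak near Csf1 may lie in or nearer to a neighbouring gene.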

How the data were processed

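The submitters' processing notes name Bowtie2 and the builds hg19 and mm9. For each cell line the authors deposited a list of peaks, named in the manner of MACS, with a score for each. The sources used here do not give tool versions or the handling of duplicates. The lowest deposited score is 80, which equals the p-value limit of 1e-08 in the lists' names on a scale of 10 times the negative log10. The names give input as the background for YAP-ERMS and IgG for RD. Each list rests on 1 TEAD library.

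Positions are 1-based with both ends included, width is the number of bases from start to end, and distances run from peak midpoint to the start site. Python 3.11.15, numpy 2.4.6, pandas 2.3.3, scipy 1.17.1 and matplotlib 3.10.9 were used. Chains joined peaks with gaps of at most 12.5 kb, and score matching used 50 bins of equal size. Tiles covered each numbered chromosome and X between its outermost peaks. The counting steps were tested on simulated data. Intervals take peaks as independent, although peaks in a cluster may not be.

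The members, the comparisons and the rule for named peaks (the 10 highest scores, the 3 nearest with ties, and the outermost on each side) were chosen with earlier results of these data known. Planned sequence motifs and pathway genes were left out, because sequence and annotation of these builds were not used here. Genes farther from CSF1 than its direct neighbours are not reported here.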

Additional observations from a re-analysis of the deposited data

How the results depend on the processing

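Of 108 alternative values for 17 results, 77 were kept and 31 moved. A change of direction was not scored apart from other moves. Counts of peaks or clusters near CSF1 were kept within 1.5 times, other values within their 95% interval, and values with no interval, or a count or share of 0 elsewhere, only where equal. Some kept values could not have moved. Among them were the number of peaks of 1000 or more under the lower score limits, and RD values that rest on the same single peak. At scores of 160 or more, the chain nearest CSF1 in RD was another peak, outside the window. Moving the start site by 1 kb either way, or counting any overlap with the window, left 41 YAP-ERMS peaks and 1 RD peak. YAP-ERMS peaks numbered 26 within 50 kb, 84 within 1000 kb, 24 when scores below 160 were dropped and 17 when those below 320 were. Their median score was then 440 and 711, as those limits require. Peaks of 1000 or more numbered 3 within 50 kb. The chain nearest Csf1 had 10 peaks at gaps of 5 kb, 21 at 10 kb, 12 without scores below 160 and 5 without those below 320. RD peaks numbered 0 within 50 kb, 0 within 100 kb, 2 within 300 kb (median score 169.8), 5 within 500 kb, 12 within 1000 kb, and 0 at scores of 160 or more or of 320 or more. Where RD had none, no ratio was computed. The RD peak's width at matched score was -0.17 log2 units, -0.13 with 20 bins and -0.24 with 100 bins. Windows with more peaks than the CSF1 window were 0.0276% of peak-centred windows in YAP-ERMS, 0.0151% of tiles with a peak and 0.0117% of all tiles. In RD they were 93.4%, 72.3% and 43.2%. Those in YAP-ERMS all belonged to the locus itself. They were 13 windows centred on peaks of the Csf1 window and the 1 tile with the Csf1 start site. Away from the locus, the share of YAP-ERMS windows with more peaks was 0% as deposited, 0.269% at scores of 160 or more, 0.351% at 320 or more, 1.10% at 1000 or more and 0.0463% with peaks within 1 kb joined. Under each score limit these windows were centred only on the peaks kept. Chains elsewhere with more peaks numbered 0 at 12.5 kb, 3 at 5 kb and 1 at 25 kb. The distances of 500 kb and 1000 kb, all tiles, and the shares and chains elsewhere were added after the data were seen. Apart from the score limits, the cause of these moves was not tested. Sequencing depth is unknown. No paired analysis was possible because each group has 1 library.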
